A study of Mus musculus with 2 samples.

Results

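Mitochondrial ribosomal protein genes were described in total RNA from the hippocampus of the 5xFAD/CAST mouse strain, a tissue that the labels name layer of hippocampus. The members were the protein-coding genes whose symbols start with Mrpl or Mrps followed by a number, which gave 78 genes of 55536 annotated genes, of which 22028 are protein coding. The rule used names alone and no measured value. Of the 78 members, 49 have Mrpl symbols and 29 have Mrps symbols.

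The mitochondrial ribosome is built from ribosomal RNAs that the mitochondrial genome encodes and from proteins that the nuclear genome encodes, which are made in the cytosol and imported. It translates only the few proteins of the mitochondrial genome, all of them subunits of the respiratory chain and the ATP synthase, on which neurons rely for much of their ATP. Some of its proteins descend from those of the bacterial ribosome and others are found only in mitochondria.

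The study sequenced 2 libraries of total RNA with ERCC spike-in RNAs, from 300 ng of RNA each, which the labels number as biological replicates 1 and 2. Both were of male origin at an age of 8 to 10 months, from a cross of the 5xFAD line with the CAST strain, and both carried the same genotype, so no comparison between conditions was possible. The 5xFAD line is a transgenic model of familial Alzheimer disease that carries mutant human APP under the neuronal Thy1 promoter. Both libraries carry 1 and the same donor identifier in the labels. SDs and p-values here therefore describe only how far these samples lie apart, and that distance may be technical.

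The annotated genes held 25987309 expected counts in replicate 1 and 28560793 in replicate 2. Of 10 hippocampal marker genes, all 10 were present at TPM (a level scaled for transcript length and depth) of 1 or more in each library. Markers of the choroid plexus summed to 1189 TPM in replicate 1 and 182 TPM in replicate 2, and those of the striatum to 148 and 62.4 TPM, with none of either list at 0 in either library. The members held 0.123% and 0.127% of the counts, between 93.0 and 1155 expected counts each.

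By the present nomenclature 51 members belong to the large subunit (39S), 26 to the small subunit (28S) and 1 to neither. The symbol and the subunit differ for 3 genes. Mrps30 (protein mL65) and Mrps18a (mL66) encode proteins of the large subunit, and Mrps36 encodes a component of the 2-oxoglutarate dehydrogenase complex. The proteins of 46 members were classed as homologues of bacterial ribosomal proteins and those of 31 as mitochondria-specific. The latter class includes Mrps18a and Mrps18b, which are relatives of bacterial S18, and the peptidyl-tRNA hydrolase Mrpl58.

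All 78 members were detected, which means a TPM of 1 or more in each library. The median member was at 21.6 TPM in replicate 1 and at 24.3 TPM in replicate 2, or 23.0 ± 1.89 TPM (SD, n = 2). Replicate 2 was the higher of the pair. Of the 78 members, 66 in replicate 1 and 70 in replicate 2 lay between 10 and 50 TPM.

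The members lay close together compared with other genes. Their upper quartile was 1.88 ± 0.0660 times their lower quartile (SD, n = 2), from 15.1 to 28.3 TPM. The same ratio was 5.27 ± 0.219 for the protein-coding genes detected by the same rule, 2.06 ± 0.0157 for 80 cytosolic ribosomal protein genes and 2.03 ± 0.0777 for 75 nuclear genes of the respiratory chain and ATP synthase. The last 2 lists were taken whole, here and for the medians below, although only 77 of the 80 and 74 of the 75 were detected. Among the detected protein-coding genes the members ranged from the 9.49th to the 87.8th percentile of TPM, with a median at the 62.6th.

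**Figure D1:**
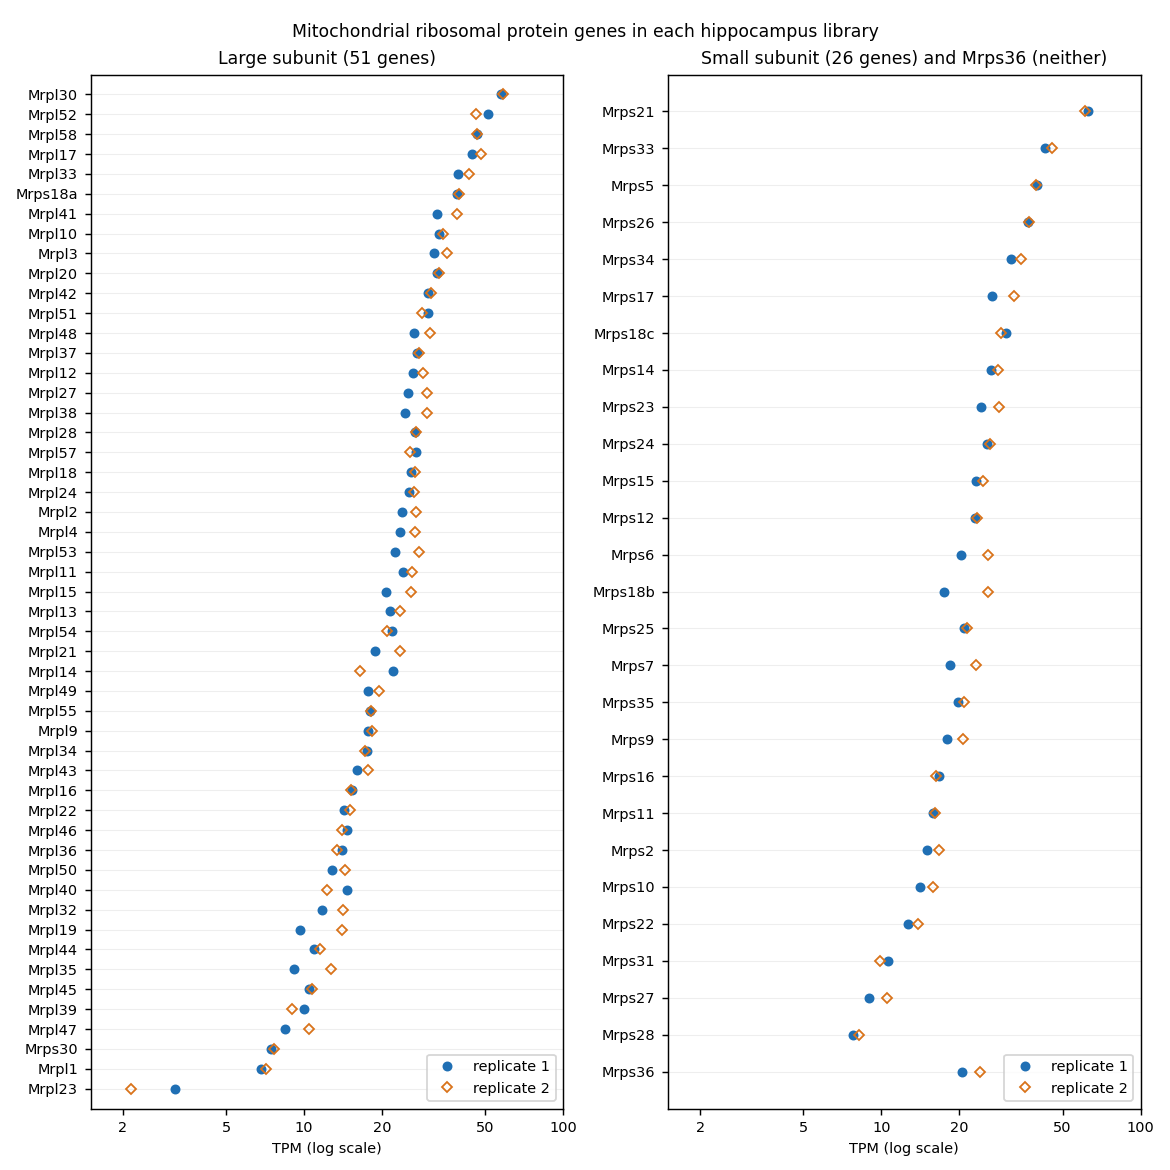
TPM (log scale) of each member in replicate 1 (filled circles) and replicate 2 (open diamonds), ordered by mean TPM within the large subunit (left) and the small subunit (right, with Mrps36 last). Most symbols lie between 10 and 50 TPM, Mrps21 is the highest at 62.6 and 60.9 TPM, and Mrpl23 stands apart at the low end at 3.17 and 2.15 TPM.

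In the large subunit the highest level was that of Mrpl30 (uL30m, a homologue of bacterial L30), with 57.8 TPM in replicate 1 and 58.5 TPM in the other library. Mrpl52 (mL52, a protein with no bacterial homologue) followed at 51.1 and 46.2 TPM. Mrpl58, a peptidyl-tRNA hydrolase that became part of the large subunit, stood at 46.4 and 46.7 TPM. These levels, with those of Mrpl17 (44.5 and 48.4 TPM), which lies near the exit of the nascent peptide, and Mrpl33 (39.2 and 43.4 TPM), were above the upper quartile of the members in both libraries. The deposited alignment-free quantification gave another order. There Mrpl33 (51.3 and 59.5 TPM) was above Mrpl30 (50.6 and 56.7 TPM) in both libraries. Mrpl52 (63.6 and 54.7 TPM) was above Mrpl30 in replicate 1 only.

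The lowest levels of the large subunit were those of Mrpl23, Mrpl1, Mrps30, Mrpl47 and Mrpl39. Mrpl1, the protein of the mobile L1 stalk, was at 6.84 and 7.10 TPM. Mrps30 was at 7.45 and 7.65 TPM and Mrpl47 (uL29m) at 8.47 and 10.5 TPM. All of these lay below the lower quartile in both libraries, as did Mrpl39 at 9.99 and 8.96 TPM. Mrpl23 is described separately, since its value differed between the deposited tables.

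In the small subunit the highest levels were those of Mrps21, Mrps33, Mrps5, Mrps26 and Mrps34. Mrps21 (bS21m) led all members at 62.6 and 60.9 TPM. Mrps33 was at 42.7 and 45.4 TPM and Mrps5, a homologue of bacterial S5, at 40.0 and 39.5 TPM. Mrps34, which the small subunit needs for its stability, was at 31.6 and 34.6 TPM, close to Mrps26 at 36.8 and 37.1 TPM.

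The lowest levels of the small subunit were those of Mrps28, Mrps27, Mrps31, Mrps22 and Mrps10. Mrps28 was at 7.75 and 8.16 TPM from 96.0 and 108 expected counts, the second fewest counts of any member after Mrpl23. Mrps27, a pentatricopeptide repeat protein that binds RNA, was at 8.92 and 10.5 TPM. Mrps31, Mrps22 and Mrps10 ranged from 9.83 to 15.8 TPM over both libraries.

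The genes of the S18 family differed in level. They encode 3 relatives of bacterial S18 that sit in different places of the mitochondrial ribosome. Mrps18a was at 38.8 and 39.7 TPM, Mrps18b (mS40) at 17.4 and 25.8 TPM and Mrps18c (bS18m) at 30.3 and 29.0 TPM. Mrps18a was the highest of the 3 in both libraries, and Mrps18b was the one whose libraries differed most.

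Other members with a known role in regulation or anchoring spread over the same range. Mrpl12 (26.3 and 28.7 TPM), which also binds the mitochondrial RNA polymerase, and Mrpl10 (33.1 and 34.4 TPM) form the stalk that recruits translation factors. Mrpl45, which anchors the ribosome to the inner membrane, was at 10.4 and 10.7 TPM, and Mrpl44, which has an RNase III fold, at 11.0 and 11.5 TPM. The stalk genes were thus higher than the membrane anchor gene in both libraries. Mrps36 was at 20.5 and 24.0 TPM.

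The subunits stood at similar levels. The median of the large subunit was 22.0 TPM (replicate 1) and 25.7 TPM (replicate 2), and that of the small subunit 20.6 and 24.1 TPM. The log2 ratio of these medians was 0.09 ± 0.0035 (SD, n = 2), and its sign turned with the alignment-free table, which gave -0.025, and with means of log2(TPM + 1), which gave -0.090. Genes classed as bacterial homologues had medians of 21.7 and 24.1 TPM, and those classed as mitochondria-specific 21.9 and 25.7 TPM. Their log2 ratio of -0.05 ± 0.0587 was smaller than its SD, and the alignment-free table gave 0.21. With Mrps18a and Mrps18b moved to the homologues it was 0.12. With 2 libraries no exact test of these ratios can reach a p below 0.5.

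The level of a member went with the length of its transcripts. Over the 78 members, Spearman's rho between TPM and the deposited transcript length was -0.48 in replicate 1 and -0.43 in replicate 2. Over the detected protein-coding genes it was -0.0061 and -0.013. TPM is itself scaled by this length and the genes of a library share its depth, so these values are a description. The median length was 1085 ± 9.06 bases for the members and 2488 ± 2.90 bases for the detected protein-coding genes (SD, n = 2).

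A further 5 genes, with symbols outside the Mrpl and Mrps series, also encode mitoribosomal proteins. Dap3, a GTP-binding protein of the small subunit, was at 42.0 and 46.0 TPM, Aurkaip1 at 40.0 and 46.0 TPM, Ptcd3 at 32.5 and 32.7 TPM, Chchd1 at 19.6 and 23.9 TPM and Gadd45gip1, of the large subunit, at 9.97 and 9.64 TPM. They fell within the range of the members.

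The factors that serve the ribosome were lower than its proteins. The median was 8.85 ± 0.750 TPM for 25 genes of mitoribosome assembly, led by Dhx30 (69.2 and 77.2 TPM). It was 12.0 ± 0.170 TPM for 16 genes of mitochondrial translation and mRNA handling, led by Slirp (42.8 and 45.4 TPM), and 9.31 ± 0.474 TPM for 20 mitochondrial aminoacyl-tRNA synthetases, led by Lars2 (64.3 and 67.9 TPM). Each of these medians lay below the lower quartile of the members, as did that of 10 genes of mitochondrial DNA transcription and replication at 9.45 ± 1.55 TPM (SD, n = 2 for each).

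The genes of the cytosolic ribosome and of the respiratory chain were higher. Cytosolic ribosomal protein genes had medians of 220 and 211 TPM in replicates 1 and 2, which was 9.42 ± 1.06 times the median of the members (log2 ratio 3.23 ± 0.163). Nuclear genes of the respiratory chain and ATP synthase had medians of 107 and 115 TPM, or 4.82 ± 0.147 times (log2 ratio 2.27 ± 0.0439). The 13 protein genes of the mitochondrial genome, whose mRNAs this ribosome translates, had a median of 2388 ± 260 TPM (SD, n = 2 for each). In bulk tissue fewer cells of a type and less RNA per cell cannot be told apart.

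**Figure D2:**
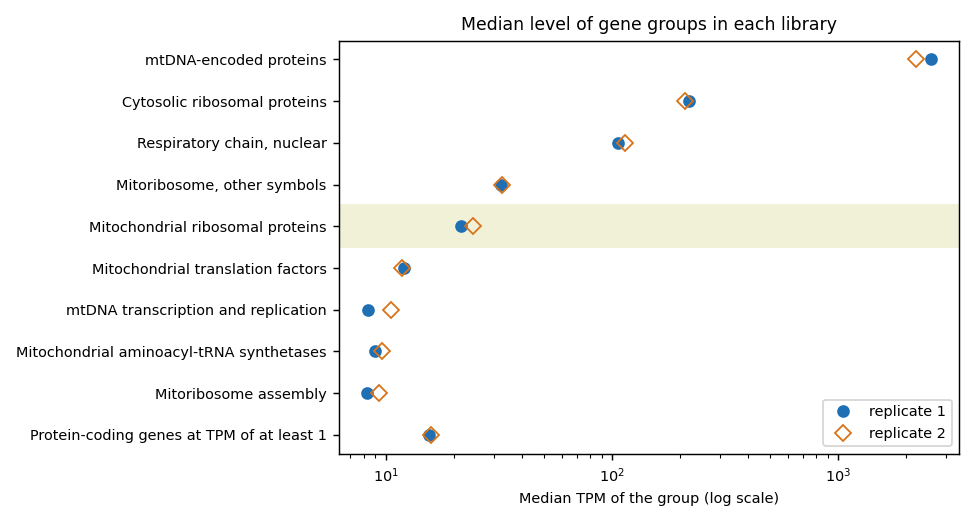
Median TPM (log scale) of gene groups in replicate 1 (filled circles) and replicate 2 (open diamonds). The members, shaded, at 21.6 and 24.3 TPM lie above the groups of assembly, translation and transcription factors and below the nuclear respiratory chain, cytosolic ribosomal and mitochondrially encoded protein genes.

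The members differed little between the libraries. The log2 ratio of replicate 2 over replicate 1, on TMM-scaled expected counts, had a median of 0.02 over the members and -0.00082 over the 16971 genes tested, those whose expected counts averaged 20 or more. The median of its size without sign was 0.08 for the members and 0.12 for all genes tested, which include genes with fewer counts than any member. It was 0.06 for the nuclear respiratory chain genes and 0.06 for the cytosolic ribosomal protein genes. A small difference was thus not particular to the members. The ratios of the members ran from -0.33 for Mrpl14, which had 191 and 166 expected counts, to 0.30 for Mrps18b, with 48 above 0 and 30 below. Over all genes tested 8455 were above 0 and 8516 below. Of the nuclear respiratory chain genes 61 were above and 13 below, and of the cytosolic ribosomal protein genes 20 and 57.

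In a two-sided exact conditional binomial test, with p-values adjusted by Benjamini-Hochberg over all 16971 genes, 5 members were higher in replicate 2 and 0 were lower at an adjusted p under 0.05. That is 6.41% of the members, where 18.5% of all genes tested passed, 9.36% as higher and 9.11% as lower in replicate 2, and 14.0% of the 8186 genes within the members' range of mean counts. At an unadjusted p under 0.05, 9 of 78 members passed, and 5026 of all 16971 genes tested. No member was more than 2-fold apart, a size that 2.00% of all genes tested reached. The share of members called was below that of all genes in these libraries, and the test sets 2 libraries against counting error alone.

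Mrpl48, a protein of the large subunit, had 811 expected counts in replicate 1 and 1019 in replicate 2 (log2 ratio 0.20, adjusted p of the exact test 0.0223). It passed under all 7 alternatives, with adjusted exact p between 2.82e-11 (scaling to the spike-ins) and 0.0458 (alignment-free table). Mrpl48 overlaps Rab6a (130 and 159 TPM) on the opposite strand. Whether reads of Rab6a entered the counts of Mrpl48 was not tested by any alternative. The other calls were Mrps18b with 283 and 382 counts (0.30, adjusted exact p 0.0423), Mrps23 with 380 and 498 (0.26, 0.0433), Mrpl38 with 496 and 635 (0.23, 0.0483) and Mrps6 with 283 and 380 (0.30, 0.0496). Each of these 4 passed under 4 of the 7 alternatives, with a highest adjusted p of 0.177, 0.0981, 0.0662 and 0.282 in the same order. All 5 genes were higher in replicate 2 in every alternative. Among the 7, summing Mrpl23 with its processed copy, described below, left the counts of these 5 genes unchanged. It could hardly alter their calls. The number of calls was 1 with library size scaling or no minimum count, 3 with the alignment-free table (Mrpl48 and Mrpl21 higher and Mrpl14 lower in replicate 2, of which only Mrpl48 is among the 5), and 55 with scaling to the spike-ins, under which 59.1% of all genes tested passed.

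The levels of tissue markers differed between the libraries too. Of 10 hippocampal markers 8 were higher in replicate 2 by the same test (median log2 ratio 0.26, sum 1528 and 1739 TPM). Lower were 6 of 6 choroid plexus markers (median -2.76) and 7 of 7 striatal markers (median -1.75). Choroid plexus and striatum were known from an earlier report on these data to differ between the libraries, so their calls are no independent result. Among related genes, 10 of 74 nuclear respiratory chain genes tested were higher and 0 lower (13.5%, median log2 ratio 0.06). Of 77 cytosolic ribosomal protein genes 2 were higher and 17 lower (24.7%, median -0.04). Of 13 mitochondrially encoded protein genes 1 was higher and 12 lower (100%, median -0.18). The share over all genes tested was 18.5%. Since the test allows for counting error alone, genes with many counts pass at small ratios. The part of the marker difference in the ratios of the members was not tested.

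Calls in the related lists of the same pathway are given beside the 18.5% of all genes tested. Of 5 other mitoribosomal genes 0 passed, also at an unadjusted p under 0.05. Of 25 assembly genes 1 was higher (Mtg2). Among translation factors 1 of 16 was lower (Guf1), as were 1 of 20 aminoacyl-tRNA synthetases (Tars2) and 1 of 10 genes of mitochondrial DNA transcription and replication (Polg). Of 9 regulators of mitochondrial biogenesis 1 was higher (Pprc1). None of these was more than 2-fold apart, and lists of this size are too short to set their shares against that of all genes.

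**Figure D3:**
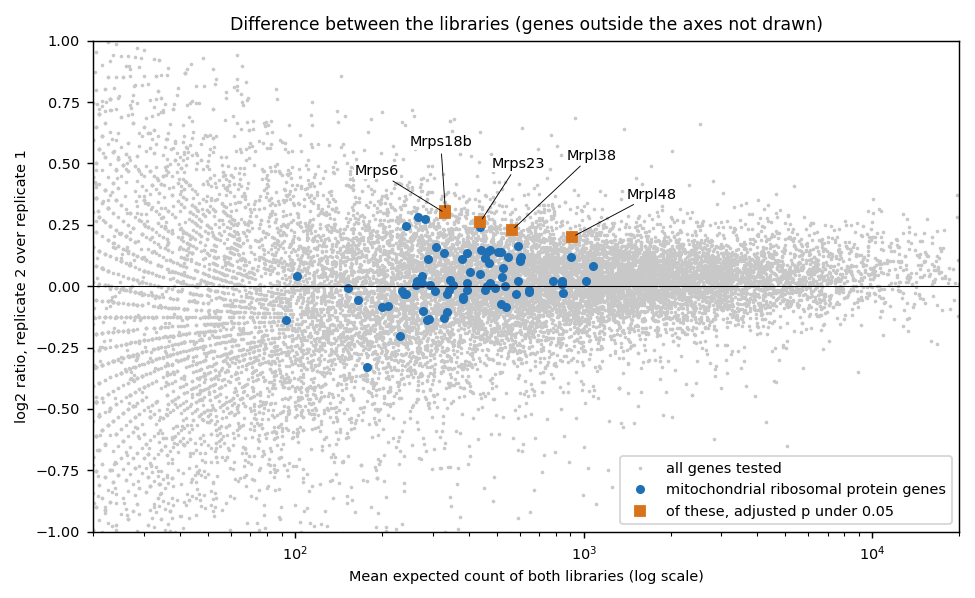
log2 ratio of replicate 2 over replicate 1 against the mean expected count (log scale) for all genes tested (grey), the members (blue circles) and the 5 members called by the exact test (orange squares). The members lie between -0.33 and 0.30, and the called ones are the upper edge of the members at their counts.

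Mrpl23 (uL23m, a protein at the exit of the nascent peptide; GRCm38, chr7:142532686-142540747, plus strand) was the lowest member by the gene table's TPM, at 3.17 and 2.15. By the posterior mean TPM of the same table it was at 6.09 and 6.04, near Mrpl1 at 6.62 and 6.87. A processed copy of it, Mrpl23-ps1, is annotated as a pseudogene at chr2:74591330-74591909 on the minus strand. The coding sequence of transcript Mrpl23-201, 441 bases with the stop codon, was identical to the copy in all 441 bases, and over 543 aligned bases the identity was 99.6%. The first 90 coding bases are shown for the gene and the copy because a read that lies within them cannot be assigned by its sequence. The start codon is in capitals.
Mrpl23-201: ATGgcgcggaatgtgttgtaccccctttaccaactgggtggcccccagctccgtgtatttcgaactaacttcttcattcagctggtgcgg
Mrpl23-ps1: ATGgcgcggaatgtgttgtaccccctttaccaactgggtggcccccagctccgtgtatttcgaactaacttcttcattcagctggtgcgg

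In the alignment-based gene table the copy held most of the reads. Mrpl23 had 93.7 expected counts in replicate 1 and 93.0 in replicate 2, and Mrpl23-ps1 had 228 and 267, which is 70.9% and 74.2% of their sum. In the alignment-free table Mrpl23 had 368 and 425 estimated counts and the copy 0 and 0. The tables thus placed the shared reads on different genes in both libraries.

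The split was as wide at the level of transcripts. The protein-coding transcripts of Mrpl23 had 14.3 expected counts in replicate 1, all on Mrpl23-201, and 0 in replicate 2. The remainder lay on retained-intron transcripts, 71.3 and 81.7 counts of it on Mrpl23-205. The alignment-free table gave Mrpl23-201 108 and 78.3 counts and Mrpl23-207, also protein coding, 146 and 153.

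Summed, the gene and its copy differed little between the tables. The alignment-free count was 3.92 and 4.57 times the aligned count of Mrpl23 alone and 1.14 and 1.18 times that of the sum. The median of the same ratio over protein-coding genes with at least 100 counts was 1.15 and 1.14. The TPM of Mrpl23 was 3.17 and 2.15 in the gene table (posterior mean 6.09 and 6.04), 29.4 and 30.9 when summed with its copy, and 29.7 and 35.3 in the alignment-free table. The sum lay above the upper quartile of the members in both libraries, where the gene alone had the lowest rank. The deposited coefficient of quartile variation, the authors' measure of how uncertain a TPM is, was 0.183 and 0.290 for Mrpl23 and 0.0431 and 0.0403 for the median member.

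Over all members the alignment-free count was 1.11 ± 0.0138 times the aligned count (median of 76 members with at least 100 counts, SD over 2 libraries), close to the 1.15 ± 0.00236 of protein-coding genes. In both libraries 6 members lay outside the central 95% of protein-coding genes. The share of protein-coding genes outside it in both libraries was not counted, so this number describes the members alone. The limits come from genes with at least 100 counts, a minimum that Mrpl23 did not reach. Mrpl23 and Mrpl13 (1.48 and 1.46) lay above it. Mrpl53 (0.852 and 0.862), Mrpl34 (0.907 and 0.870), Mrpl54 (0.949 and 0.922) and Mrpl55 (0.991 and 0.976) lay below.

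**Figure D4:**
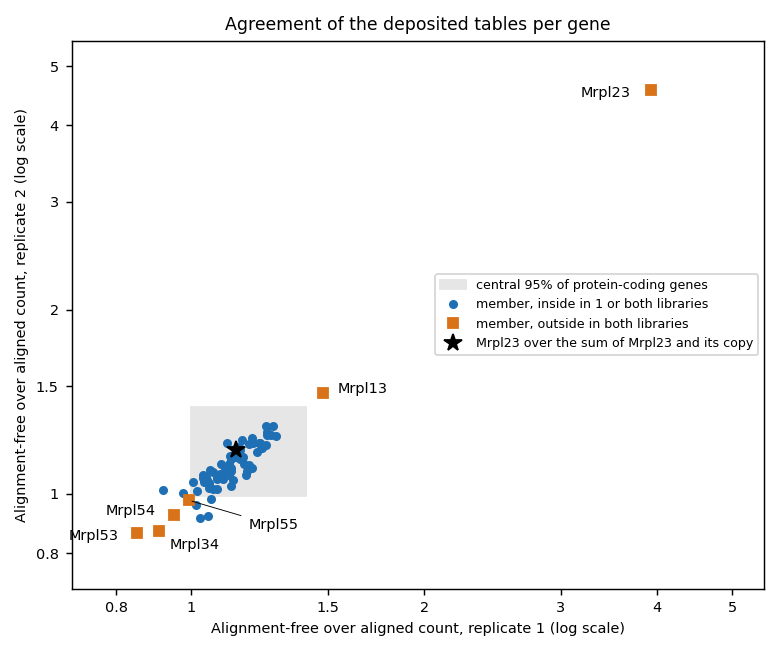
Alignment-free over aligned count of each member in replicate 1 (x axis) and replicate 2 (y axis), both on log scales, with the central 95% of protein-coding genes as a grey box. Mrpl23 stands at 3.92 and 4.57, and its ratio over the sum with its copy (star) falls inside the box at 1.14 and 1.18.

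Other members share sequence with further loci. Of the 78 members 31 shared no stretch of 31 bases with another annotated gene, and 20 shared more than 10% of their 31-base stretches. Every such stretch of Mrpl53 is also in Gm42688, a protein-coding model on the same strand that overlaps it and had 301 and 269 expected counts beside 244 and 322 for Mrpl53, so the level of Mrpl53 is uncertain. Mrps33 shares 16.9% with the processed pseudogene Gm5776 (65.4 and 69.9 counts beside 552 and 650). Mrps6, one of the called members, shares 15.8% with Slc5a3, which overlaps it on the same strand, and 33.8% with any other gene. Of the other called members Mrps18b shares 31.4%, Mrpl48 6.72%, and Mrpl38 and Mrps23 0%. The pseudogene Mrpl48-ps held 37.8 and 34.0 counts, and Mrps36-ps1, Mrps36-ps2 and Mrps36-ps3 held 0, which allows up to 3 counts each.

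The transcripts of the members were often of a noncoding class. The annotation gives them 343 transcripts, of which 170 are protein coding, 88 retain an intron, 61 are processed transcripts with no reading frame and 24 are targets of nonsense-mediated decay. Protein-coding transcripts held 73.7 ± 0.0277% of the members' TPM by the alignment-based table and 70.7 ± 1.31% by the alignment-free one (SD, n = 2). Over all protein-coding genes the share was 83.1 ± 0.0860% and 80.5 ± 0.165%. These shares pool the TPM of each set, so abundant genes weigh most, those of the mitochondrial genome among them. The members' share was lower in both tables and both libraries.

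The leading transcript, the one with the most TPM, was the same in both tables and both libraries for 54 of 78 members. A protein-coding transcript led in all 4 for 55 members and in some of the 4 for 12. For 11 members a noncoding class led in all 4, each time with 1 and the same transcript. These were Mrpl3, Mrpl15, Mrpl32, Mrpl47, Mrpl51, Mrpl57, Mrps14, Mrps16, Mrps24, Mrps25 and Mrps26. The same count was not made over all protein-coding genes, so 11 of 78 describes the members alone.

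Mrps26-201, a retained-intron transcript of 1057 bases, held 92.4% and 91.7% of the TPM of Mrps26 in the alignment-based table and 92.8% and 91.5% in the alignment-free table. Mrps16-202, a processed transcript, held 92.6% and 90.2% of Mrps16, and Mrpl57-202, a retained-intron transcript, 89.3% and 87.4% of Mrpl57. Mrps14-201 and Mrpl32-201 are annotated as targets of nonsense-mediated decay and held 80.0% and 79.9% of Mrps14 and 72.2% and 77.3% of Mrpl32. In these 5 genes the coding transcripts held at most 24.0% in any of the 4 tables.

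In the 12 members with a mixed lead the tables differed. The coding share of Mrpl33 was 80.6% and 75.5% in the alignment-based table and 17.2% and 15.2% in the alignment-free one, where Mrpl33-211, a processed transcript, led. The coding share of Mrps11 went the other way, at 26.4% and 36.5% against 57.8% and 74.4%. The others were Mrpl13, Mrpl19, Mrpl22, Mrpl23, Mrpl35, Mrpl38, Mrps5, Mrps7, Mrps12 and Mrps35. A further 12 members had a coding lead throughout with a change of the leading transcript, namely Mrpl1, Mrpl17, Mrpl24, Mrpl40, Mrpl42, Mrpl52, Mrpl55, Mrps10, Mrps17, Mrps21, Mrps23 and Mrps33. The transcript levels of these members are uncertain. Their ratio of gene counts between the tables lay inside the central 95% in at least 1 library, except for Mrpl13, Mrpl23 and Mrpl55.

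**Figure D5:**
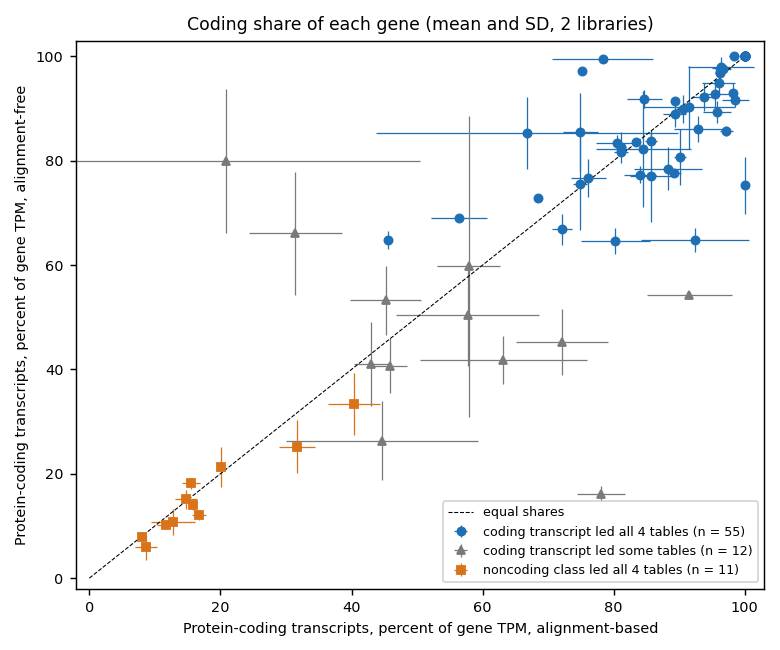
Share of each member's TPM held by protein-coding transcripts in the alignment-based (x axis) and alignment-free table (y axis), in percent, as mean and SD of 2 libraries. The 11 members led by a noncoding class (orange squares) lie at the lower left close to the line of equal shares, and the 12 with a mixed lead (grey triangles) scatter away from it.

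The members are spread over 17 chromosomes, with 11 on chromosome 11, 8 on chromosome 17 and 7 on chromosome 6. A protein-coding neighbour faced 26 of 78 members head to head (33.3%), its start within 1000 bases on the opposite strand or overlapping by at most 500 bases. The same held for 2094 of 22028 protein-coding genes (9.51%). These include genes that were not detected, and the share over detected genes alone was not counted. Both genes of the pair Mrps11 and Mrpl46 are members, and they overlap by 412 bases at their starts. Mrps11 stood at 15.9 and 16.1 TPM and Mrpl46 at 14.7 and 14.0 TPM, so the small-subunit gene was the higher in both libraries.

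Several partners encode other proteins of mitochondria or of translation. Mrpl36 (14.0 and 13.5 TPM) faced the complex I gene Ndufs6 (69.4 and 74.1 TPM), and Mrps12 (22.9 and 23.5 TPM) faced Sars2, the mitochondrial seryl-tRNA synthetase (5.45 and 6.18 TPM). Mrpl49 (17.6 and 19.4 TPM) faced Fau, which encodes a cytosolic ribosomal protein (386 and 395 TPM). Of the 24 partners that are no members, 15 were lower than the member in both libraries and 8 were higher, so a shared start region went with unequal levels in either direction.

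A protein-coding gene of the opposite strand overlapped 23 members. Mrpl48 overlaps Rab6a (130 and 159 TPM), Mrps34 overlaps Mapk8ip3 (169 and 176 TPM) and Mrpl47 overlaps Ndufb5 (80.8 and 85.4 TPM). The library kit keeps strand per the labels, and whether the counting used it is not given in the sources used here, so these members' counts are uncertain where the partner is higher.

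Promoter sequences of 69 members were at hand from RefSeq (GRCm38.p6), from 250 bases before to 50 bases after the start. They were searched on both strands for the core of NRF1 sites (GCGCATGCG), the core of ETS sites (CCGGAAG), which GABP binds, and a YY1-type site (AAGATGGCG). NRF1, GABP and YY1 are factors known to bind promoters of nuclear genes for mitochondrial proteins. The ETS core can share its last 3 bases with the start of the YY1-type site, which no member promoter showed. A match describes the sequence, not a bound site.

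The ETS core was in 26 of 69 members (37.7%), in 13.4% of 16522 protein-coding genes and in 19.0% of the 10338 that were detected. The NRF1 core was in 7 members (10.1%, against 2.74% and 3.99%) and the YY1-type site in 8 (11.6%, against 2.25% and 3.45%). At least 1 of the 3 was in 36 members (52.2%, against 17.1% and 24.6%). Promoters of cytosolic ribosomal proteins held at least 1 in 51.7% and those of the nuclear respiratory chain in 42.6%. The GC box GGGCGG was in 49.3% of members (against 51.0% and 69.4%), and TATAAA in 7.25% (against 14.3% and 8.43%). The median member promoter held 21 CpG, against 20 in detected genes.

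No promoter held all 3 motifs, and 5 members held a pair of them: Mrpl17, Mrpl22, Mrps18a, Mrps18b and Mrps27. Of these, 3 are shown from 170 bases before to 30 bases after the start, since their windows hold both motifs, with the motifs in capitals. Mrpl22 (chr11:58171494-58171693, plus strand) has an ETS and an NRF1 core, and Mrps18a (chr17:46110834-46111033, plus strand) and Mrps27 (chr13:99344616-99344815, plus strand) have an ETS core and a YY1-type site.
Mrpl22: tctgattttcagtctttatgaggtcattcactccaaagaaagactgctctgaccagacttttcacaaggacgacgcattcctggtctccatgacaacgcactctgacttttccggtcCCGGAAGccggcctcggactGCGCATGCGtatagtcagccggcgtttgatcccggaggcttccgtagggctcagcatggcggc
Mrps18a: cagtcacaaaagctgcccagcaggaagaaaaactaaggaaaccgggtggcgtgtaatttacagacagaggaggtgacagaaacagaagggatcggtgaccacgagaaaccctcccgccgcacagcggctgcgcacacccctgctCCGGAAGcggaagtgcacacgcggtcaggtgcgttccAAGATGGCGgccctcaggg
Mrps27: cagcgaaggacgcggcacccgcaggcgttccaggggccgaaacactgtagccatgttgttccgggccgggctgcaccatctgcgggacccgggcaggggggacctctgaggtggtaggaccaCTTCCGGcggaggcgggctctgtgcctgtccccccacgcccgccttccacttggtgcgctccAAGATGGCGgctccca
The genes with these promoters differed in level, with Mrpl22 at 14.2 and 15.0 TPM, Mrps18a at 38.8 and 39.7 TPM and Mrps27 at 8.92 and 10.5 TPM, so Mrps18a was above the upper quartile of the members and Mrps27 below the lower one in both libraries.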

How the data were processed

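The libraries came with an alignment-based gene and transcript table and an alignment-free transcript table each, on mm10 with GENCODE M21 per the submitters' deposited notes. Which aligner and quantifiers made them is not given in the sources used here. Per the file headers, the authors deposited expected counts (estimated reads, not whole), TPM scaled for length and depth over all entries, FPKM, the percent of a gene's TPM per transcript, and a score of TPM uncertainty (coefficient of quartile variation). Reads from CAST alleles were quantified against mm10, and the effect was not tested.

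Alignment-free values were summed per gene. Expected counts were rounded for tests and scaled by TMM (edgeR 4.0.16, R 4.3.3). Log2 ratios used a prior count of 0.5 and genes with a mean of at least 20 counts. Each library was tested once against the other by an exact conditional binomial test with Benjamini-Hochberg adjustment. The common biological coefficient of variation was 0.0886. Python 3.11.15, pandas 2.3.3, scipy 1.17.1, Biopython 1.88 and matplotlib 3.10.9 did the rest. Of these steps only the log2 ratio and exact test were tried on simulated counts, drawn with counting error alone.

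Named were the 5 highest and 5 lowest members per subunit, called members, members outside the central 95% of table ratios, members with a changing or noncoding lead, members with a known special role and leading genes of each list. Others were named where sequence or position is described, after their values were seen. The members, lists and rules were chosen with earlier results of these data known. Alternatives covered scaling (DESeq2 1.42.0 size factors among them), count and TPM thresholds, pseudocounts, posterior mean TPM, FPKM, the alignment-free table and each library alone.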

Additional observations from a re-analysis of the deposited data

How the results depend on the processing

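Of 101 alternative values 74 were taken as kept, 12 lost a call, 11 moved and 4 changed sign. Kept values held their direction and side of the threshold, moved by less than the spread, or were counts of similar size. Such a count was 68 members at a TPM of 10 or more, beside 78 at 1 or more. Each library alone lies within the SD of the pair by construction, so those values could not move. The count of 5 called members became 1 with library size scaling and 1 with no minimum count (Mrpl48 in each), 3 with the alignment-free table (Mrpl21 and Mrpl48 higher, Mrpl14 lower in replicate 2) and 55 with ERCC scaling, under which 59.1% of all genes tested passed. ERCC scaling moved the median log2 ratio of the members to 0.29 and that of all genes to 0.27, so their difference stayed at 0.02. The log2 ratio of large over small subunit became 0.10 with subunits by symbol letter, 0.075 with posterior mean TPM, -0.025 with alignment-free TPM and -0.090 with means of log2(TPM + 1). That of homologues over mitochondria-specific genes became 0.12 with Mrps18a and Mrps18b moved to the homologues and 0.21 with alignment-free TPM. The coding share became 70.7% in the alignment-free table. For these changes the cause was not tested. Summing Mrpl23 with its copy, an alternative chosen after seeing the data, took its TPM from 2.66 to 30.1, and posterior mean TPM gave 6.07. Each library alone gave a median of 21.6 to 24.3 TPM, and log2 ratios of 0.09 to 0.10, -0.09 to -0.01, 3.12 to 3.35 and 2.24 to 2.30 for the subunits, the homologues, the cytosolic ribosome and the respiratory chain. It gave a coding share of 73.63% to 73.67% and a table ratio of 1.10 to 1.12. No paired analysis was possible because there is 1 group. Values that need both libraries have no such range. Members under 110 counts (Mrpl23, Mrps28) have the widest counting error.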
